A study of Mus musculus with 6 samples.

Results

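Genes known for their roles in stem and progenitor cells of the blood, Cd34, Myb, Mecom, Erg, Hlf, Mllt3, Sox4, Cd48, Slamf1 and Procr, are described in leukemic cells labelled WT or Sdc1-/-. They were listed by name, as were all lists below, with earlier results of these data known. They make up 10 of the 36083 genes measured. Lin- cells of blast crisis chronic myeloid leukemia (bcCML) were sorted from the spleens of transplanted mice, and their RNA was sequenced in 3 libraries per group. KLS cells, the c-Kit+ Lin- Sca-1+ fraction of bone marrow that holds hematopoietic stem and early progenitor cells, came from WT donors or Sdc1-/- donors, both on a B6 background, and carried the fusion oncogenes BCR-ABL and NUP98-HOXA9 from retroviruses in both groups. Only cells positive for both were transplanted, into NSG mice by the labels (the general methods of the study name another recipient strain), and the spleens of both cohorts were taken on 1 occasion. The Sdc1-/- donors are germline knockouts of syndecan-1, a cell surface proteoglycan. A legend of the study calls the 3 WT libraries technical replicates, and how many mice stand behind each group is not given in the sources used here, so an SD or p-value below may measure only technical spread.

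The values are TPM, a share of all transcripts corrected for their length, rescaled between libraries by the authors, and a "value" below is on that scale. Read depth is unknown, and no counting interval is given. Groups were compared with limma on log2(value + 1) over the 12155 genes whose mean reached 1, with Benjamini-Hochberg adjustment over all of them, and a gene was called at an adjusted p below 0.05. A log2 fold change is the mean of the libraries labelled Sdc1-/- minus that of the WT libraries on this scale, which understates the change of genes with low values. In all, 60.7% of the tested genes were called, with 29.3% higher and 31.3% lower where the label was Sdc1-/-. Of the calls, 51.7% were lower. Setting all libraries to equal sums of 1000000 gave 43.5% higher and 19.5% lower, so that 30.9% of the calls were lower, and moved the median log2 fold change of the tested genes from -0.0097 to 0.12.

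Sdc1 itself, the targeted gene, had values of 1.75, 1.21 and 1.51 in the WT libraries and 3.85, 3.80 and 4.12 in those labelled Sdc1-/-. It was thus higher where the label names its loss (log2 fold change 0.99, SE 0.093, limma, adjusted p = 0.000118). The study describes an allele in which the coding sequence of the signal peptide is disrupted, and a value summed over the gene does not show whether the transcripts carry that change. The study reports that PCR of genomic DNA of the mice and staining of bcCML cells for the protein bore out the deletion, data that are not analysed here. The groups are therefore named by their labels throughout, and each direction given here rests on those labels. Genes of the Y chromosome also separated the groups: Eif2s3y lay between 0 and 0.0116 in the WT libraries and between 43.2 and 49.8 in those labelled Sdc1-/-, and Ddx3y, Kdm5d and Uty likewise did not overlap. Genotype and the sex of the donors or hosts cannot be told apart.

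Blood stem cells sit at the top of a hierarchy in which a few transcription factors keep cells immature and others drive them into a lineage. Myb, Mecom, Erg, Hlf, Mllt3 and Sox4 encode regulators of transcription that act in immature cells, several of them first met as oncogenes in leukemia, while Cd34, Cd48, Slamf1 and Procr encode surface proteins by which stem cells and progenitors are sorted. In normal mouse marrow, SLAMF1 (CD150) and PROCR (EPCR) mark stem cells, whereas CD48 marks the progenitors that follow them and CD34 appears as the most dormant stem cells become active. The code differs in this leukemia. The study identified the stem cells of bcCML as Lin- cells that lack CD150 and carry Flt3, and its text and a legend differ on Sca-1.

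Sequences before 6 transcript starts are shown as context for the genes that are compared below. Slamf1 and Cd48 are neighbours on 1 chromosome whose log2 fold changes differed in size, and Sox4 had the largest change. Erg and Mecom have transcripts that begin at widely spaced starts, which a value per gene sums together. Each sequence holds the bases from 250 to 51 before a RefSeq transcript start on GRCm38.p6, written 5′ to 3′ on the strand of the gene, and capitals mark a match to 1 of 5 motifs.
Slamf1, chr1:171766882-171767081, plus strand: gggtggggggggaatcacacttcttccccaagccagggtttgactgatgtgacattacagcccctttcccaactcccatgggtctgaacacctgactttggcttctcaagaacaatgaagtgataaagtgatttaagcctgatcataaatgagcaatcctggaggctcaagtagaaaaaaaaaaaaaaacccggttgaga
Cd48, chr1:171681742-171681941, plus strand: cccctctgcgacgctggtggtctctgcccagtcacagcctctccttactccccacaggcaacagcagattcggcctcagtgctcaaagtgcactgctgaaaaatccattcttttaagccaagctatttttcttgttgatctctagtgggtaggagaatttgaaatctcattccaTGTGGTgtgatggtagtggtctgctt
Sox4, chr13:28953750-28953949, minus strand: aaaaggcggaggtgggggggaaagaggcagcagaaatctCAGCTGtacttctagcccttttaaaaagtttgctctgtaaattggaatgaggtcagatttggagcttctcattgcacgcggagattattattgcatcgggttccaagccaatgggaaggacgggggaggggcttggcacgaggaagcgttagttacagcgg
Erg, outermost start, chr16:95586644-95586843, minus strand: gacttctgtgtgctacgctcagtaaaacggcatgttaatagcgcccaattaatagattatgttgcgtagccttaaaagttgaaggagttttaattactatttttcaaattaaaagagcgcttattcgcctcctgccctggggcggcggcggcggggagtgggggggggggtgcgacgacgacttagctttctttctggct
Mecom, outer start, chr3:30509810-30510009, minus strand: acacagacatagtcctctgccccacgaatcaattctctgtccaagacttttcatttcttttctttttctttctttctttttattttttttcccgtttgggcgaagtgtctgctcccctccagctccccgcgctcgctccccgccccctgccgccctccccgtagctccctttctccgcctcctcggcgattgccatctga
Mecom, inner start, chr3:30013255-30013454, minus strand: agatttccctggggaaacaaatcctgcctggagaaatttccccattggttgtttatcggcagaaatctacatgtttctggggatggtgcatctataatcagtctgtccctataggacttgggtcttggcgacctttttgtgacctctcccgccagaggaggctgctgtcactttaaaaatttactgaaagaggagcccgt

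The windows differed in base composition. Those of Slamf1 and Cd48 held 1 and 3 CpG dinucleotides (observed over expected 0.10 and 0.25), and those of the outermost Erg start and the outer Mecom start held 13 and 12 (1.13 and 1.06). The inner Mecom window held 4 (0.36), and the other Erg windows, not shown, held 3 and 2 (0.28 and 0.25), against a median of 4 (0.36) over the 32851 windows of all genes. Myb, whose window is not shown, held 33 in a window of 82.0% G and C. The motifs, searched on both strands and counted each on its own where they overlap, were CCGGAAG for ETS factors (in 3.98% of all windows), AGATAA for GATA factors (8.42%), TGTGGT for RUNX factors (11.6%), AACTG for MYB (33.6%) and the E-box CAGCTG (10.3%). In the 14 windows of the 10 genes, the ETS letters did not occur. The GATA letters occurred in 1 (an inner start of Erg), the RUNX letters in 1 (Cd48), the MYB letters in 3 (Erg, Mllt3 and Procr, once each) and the E-box in 2 (Sox4 and Mllt3). A match of letters is a description of the window only.

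Of the 10 genes, 9 reached a mean of 1 and were tested. Of these, 6 were called higher in the libraries labelled Sdc1-/- (Myb, Mecom, Erg, Sox4, Slamf1 and Procr), 1 was called lower (Cd34), and 2 were not called (Cd48 and Mllt3), beside the 29.3% and 31.3% over all genes tested. Sox4 and Procr had WT means below 1 and passed the minimum mean only through the libraries in which they were high, so the count is a description. With equal sums per library, 7 were higher, Cd48 now among them, and none lower, beside 43.5% and 19.5% over all genes tested. The values of the groups did not overlap for 8 of the 10 genes, where 66.7% of all tested genes did not overlap.

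**Figure D1:**
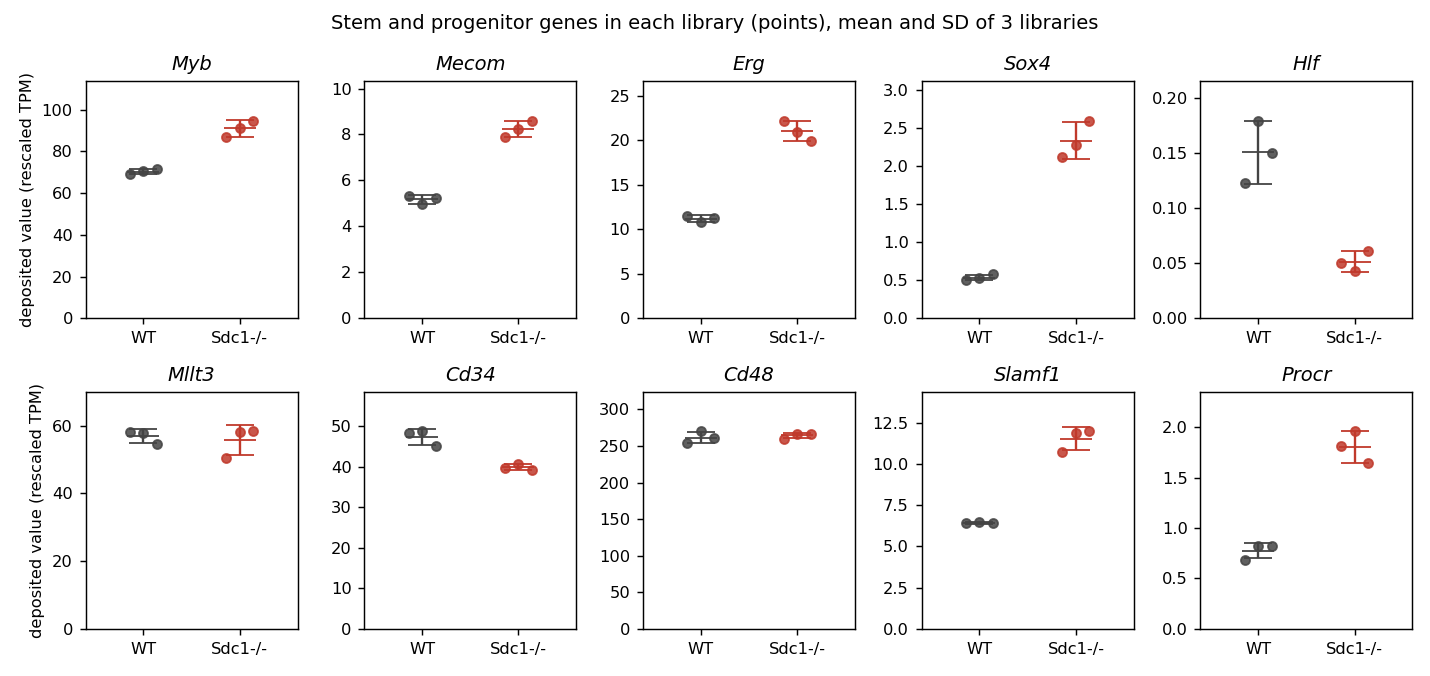
Value (rescaled TPM, linear axes from 0) of each of the 10 genes in each library (points) of the groups labelled WT (grey) and Sdc1-/- (red), with the mean and SD of 3 libraries (bars). Myb, Mecom, Erg, Sox4, Slamf1 and Procr lie higher in the red group in every library, Cd34 and Hlf lower, and Mllt3 and Cd48 overlap.

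Among the regulators, Erg, Mecom, Myb and Sox4 rose. Erg (ENSMUSG00000040732, chromosome 16, 95359169 to 95586593, minus strand) encodes an ETS transcription factor needed for stem cells to persist. Its values were 11.5, 10.8 and 11.2 in the WT libraries and 22.2, 20.9 and 19.9 in those labelled Sdc1-/-. Every library of the second group lay well above every library of the first. The means were 11.2 ± 0.37 and 21.0 ± 1.15 (SD, n = 3 each), a ratio of 1.88, and the log2 fold change was 0.85 (SE 0.051, 95% confidence interval 0.73 to 0.97, limma, adjusted p = 1.53e-05). RefSeq gives Erg 3 starts, and the values do not tell which of them the transcripts used.

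Mecom (ENSMUSG00000027684, chromosome 3, 29951296 to 30548008, minus strand) encodes zinc finger proteins from its separate starts, the longer of which carries a PR domain. Values of 5.34, 4.97 and 5.22 in the WT libraries stood against 7.88, 8.24 and 8.61 in those labelled Sdc1-/-, with no overlap. The ratio of the means was 1.59 and the log2 fold change 0.58 (SE 0.053, interval 0.46 to 0.71, limma, adjusted p = 0.000103). The long and the short form cannot be separated in a value per gene.

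Myb (ENSMUSG00000019982, chromosome 10, 21124935 to 21160984, minus strand), the factor that keeps progenitors dividing and is turned down as they mature, had the highest level of the 6 regulators. It stood at 69.0, 70.6 and 71.5 in the WT libraries and at 87.1, 91.2 and 94.8 in those labelled Sdc1-/-. The groups were apart by more than the spread within either, with means of 70.4 ± 1.25 and 91.0 ± 3.88 (SD, n = 3 each), a ratio of 1.29 and a log2 fold change of 0.37 (SE 0.039, interval 0.27 to 0.46, limma, adjusted p = 0.000209). An antisense RNA gene annotated on the other strand (Gm26577) shares 559 exon bases with Myb. Whether the strand of the reads was used in their assignment is not given in the sources used here, and smaller overlaps exist for Cd34 (148 bases) and Mecom (81 bases).

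Sox4 (ENSMUSG00000076431, chromosome 13, 28948919 to 28953713, minus strand), an SRY-related factor of early lymphoid and myeloid progenitors and a frequent site of retroviral insertion in mouse leukemia, showed the largest change of the 10 genes at a low level. Its values were 0.504, 0.524 and 0.575 in the WT libraries and 2.12, 2.28 and 2.60 in those labelled Sdc1-/-. All 3 of the second group were above 2 and all 3 of the first below 1. The ratio of the means was 4.36, and the log2 fold change was 1.12 (SE 0.083, interval 0.92 to 1.31, limma, adjusted p = 4.08e-05). Since it reached the minimum mean only through the libraries labelled Sdc1-/-, its place among the tested genes itself reflects the difference, and the fit with no minimum mean gave 1.12 (adjusted p = 0.00028). With a pseudocount of 0.1 in place of 1 the log2 fold change was 1.93, so its size depends on that choice. The single exon of Sox4 shares 2616 bases with a noncoding gene on the opposite strand (Gm26735), with the same limit on strand as for Myb. Neither Gm26735 nor Gm26577 has values in the data used here, so their levels cannot be checked.

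Hlf (ENSMUSG00000003949, chromosome 11, 90336536 to 90390895, minus strand), a PAR bZIP factor limited within blood largely to stem cells, was near the bottom of the scale and went the other way. Its values were 0.122, 0.180 and 0.150 in the WT libraries and 0.0502, 0.0429 and 0.0613 in those labelled Sdc1-/-, which do not overlap. The ratio of the means was 0.341. With a mean below 1 Hlf was left out of the test. In a fit with no minimum mean its log2 fold change was -0.13 (SE 0.022, interval -0.18 to -0.076, limma, adjusted p = 0.00717), a size set largely by the pseudocount of 1. At these levels and with depth unknown, how many reads stand behind the difference cannot be given.

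Mllt3 (ENSMUSG00000028496, chromosome 4, 87769925 to 88033364, minus strand), a reader of acylated histones in the super elongation complex and in DOT1L complexes, and a fusion partner of MLL in leukemia, was not called. Values were 58.2, 58.0 and 54.5 in the WT libraries and 50.6, 58.3 and 58.4 in those labelled Sdc1-/-. The lowest and the highest of the 6 were both in the second group. The log2 fold change was -0.03 (SE 0.062, interval -0.18 to 0.12, limma, adjusted p = 0.691), and its sign changed when replicate 1 labelled Sdc1-/- was left out (0.036) and under both other scalings.

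Among the surface proteins, Slamf1 and Procr rose, Cd34 fell and Cd48 was not called. Slamf1 (ENSMUSG00000015316, chromosome 1, 171767127 to 171801184, plus strand) encodes CD150, a self-binding receptor of the SLAM family. The WT libraries were almost equal, at 6.40, 6.49 and 6.40, and those labelled Sdc1-/- stood at 10.7, 11.9 and 12.0. The gap between the groups was thus many times the spread within the first. The ratio of the means was 1.79 and the log2 fold change 0.75 (SE 0.053, interval 0.63 to 0.88, limma, adjusted p = 3.14e-05).

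Cd48 (ENSMUSG00000015355, chromosome 1, 171682009 to 171705258, plus strand), a ligand of CD2 and CD244 anchored in the membrane by a lipid, had the highest level of the 10 genes. It stood at 254, 270 and 261 in the WT libraries and at 260, 266 and 267 in those labelled Sdc1-/-, so the second group lay inside the range of the first. The log2 fold change was 0.016 (SE 0.033, interval -0.061 to 0.093, limma, adjusted p = 0.701). This result depends on the scaling: with equal sums per library it was 0.16 (adjusted p = 0.00458, called higher), and with quantile normalization 0.13 (adjusted p = 0.014, called higher).

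Cd34 (ENSMUSG00000016494, chromosome 1, 194938819 to 194961279, plus strand), a sialomucin of progenitors and of vessels, was the only one of the tested genes called lower. Values were 48.4, 48.8 and 45.0 in the WT libraries and 39.8, 40.7 and 39.3 in those labelled Sdc1-/-. The groups did not overlap, with means of 47.4 ± 2.06 and 39.9 ± 0.71 (SD, n = 3 each) and a ratio of 0.843. The log2 fold change was -0.24 (SE 0.041, interval -0.34 to -0.14, limma, adjusted p = 0.00191), but with equal sums per library it was -0.095 and not called (adjusted p = 0.068).

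Procr (ENSMUSG00000027611, chromosome 2, 155751117 to 155755471, plus strand), the receptor of activated protein C on stem cells and endothelium, was low in both groups. It had values of 0.686, 0.820 and 0.824 in the WT libraries and of 1.82, 1.96 and 1.64 in those labelled Sdc1-/-. Each library of the second group lay above each of the first. The ratio of the means was 2.32 and the log2 fold change 0.66 (SE 0.082, interval 0.46 to 0.85, limma, adjusted p = 0.000449). Like Sox4 it was tested only because of its level in the libraries labelled Sdc1-/-, and the fit with no minimum mean gave 0.66 (adjusted p = 0.0015). With a pseudocount of 0.1 the log2 fold change was 1.12.

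**Figure D2:**
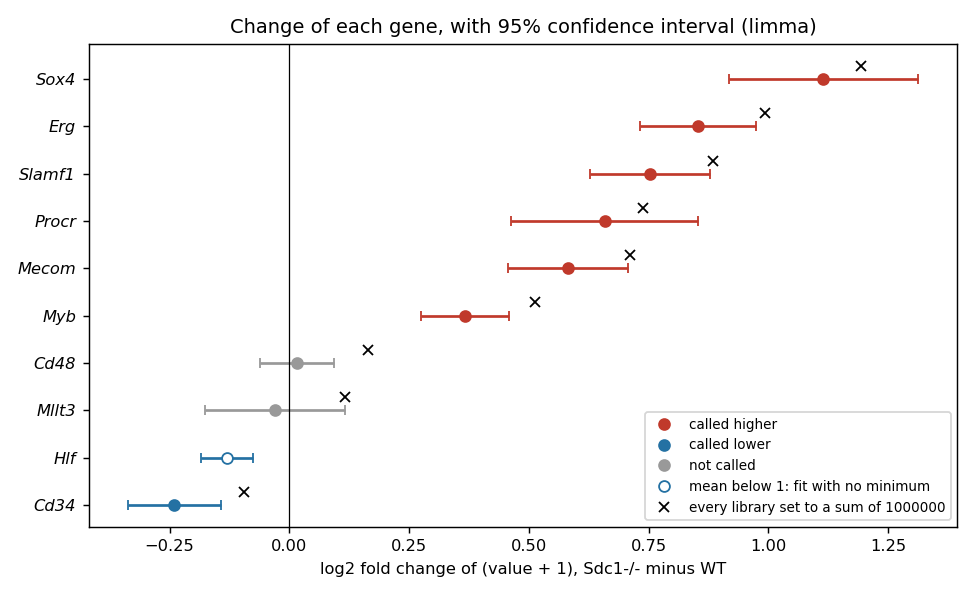
Log2 fold change of (value + 1) of each gene, Sdc1-/- minus WT by label, with its 95% confidence interval from limma (3 libraries per group); crosses give the value with equal sums per library. Sox4 (1.12), Erg (0.85) and Slamf1 (0.75) lie farthest to the right. Every cross lies right of its point. Those of Cd34, Myb, Mecom, Erg, Slamf1 and Cd48 (0.16) lie right of their intervals, that of Mllt3 (0.12) at the edge, and those of Sox4 and Procr inside.

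Values corrected for length allow levels of different genes to be compared within a group. In the WT libraries the order of mean levels was Cd48 (262), Myb (70.4), Mllt3 (56.9), Cd34 (47.4), Erg (11.2), Slamf1 (6.43), Mecom (5.18), Procr (0.777), Sox4 (0.534) and Hlf (0.151). No neighbours in that order had overlapping libraries. In the libraries labelled Sdc1-/- the order was the same except that Sox4 (2.33) stood above Procr (1.80), again with no overlap between neighbours. Relative to all tested genes, Cd48 was at the 95.9th percentile of mean level and Procr at the 3.6th.

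Slamf1 and Cd48 lie in 1 cluster of SLAM receptor genes on chromosome 1, with the start of Cd48 85.1 kb before that of Slamf1. Of the other members and 2 adaptors of the family, 4 of 9 were tested and all 4 were called lower, beside 31.3% over all tested genes. With equal sums per library these 4 were lower too, beside 19.5%. Their median log2 fold change on the deposited scale was -0.79 against -0.0097 over all tested genes. Cd84, whose start is 72.6 kb past that of Slamf1 and which encodes another self-binding receptor, had values of 46.8, 48.1 and 46.9 in the WT libraries and 26.5, 27.0 and 26.9 in those labelled Sdc1-/-. It fell by 0.80 on the log2 scale (SE 0.031, limma, adjusted p = 3.08e-06). Cd244a, the receptor for CD48, stood at 9.19, 9.22 and 9.24 against 4.51, 5.13 and 5.08, and fell by 0.79 (SE 0.057, limma, adjusted p = 3.34e-05). Ly9 fell by 0.28 (adjusted p = 0.0048). Sh2d1b1, which encodes an adaptor that binds the tails of these receptors, had means of 4.51 ± 0.12 and 1.17 ± 0.18 (SD, n = 3 each) and fell by 1.35 (adjusted p = 1.38e-05). These 2 genes were named after their values were seen, to account for all 4. The adaptor gene Sh2d1a was listed at 0 in every library, and Slamf6, Slamf7, Slamf8 and Slamf9 had means below 1 over the 6 libraries.

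**Figure D3:**
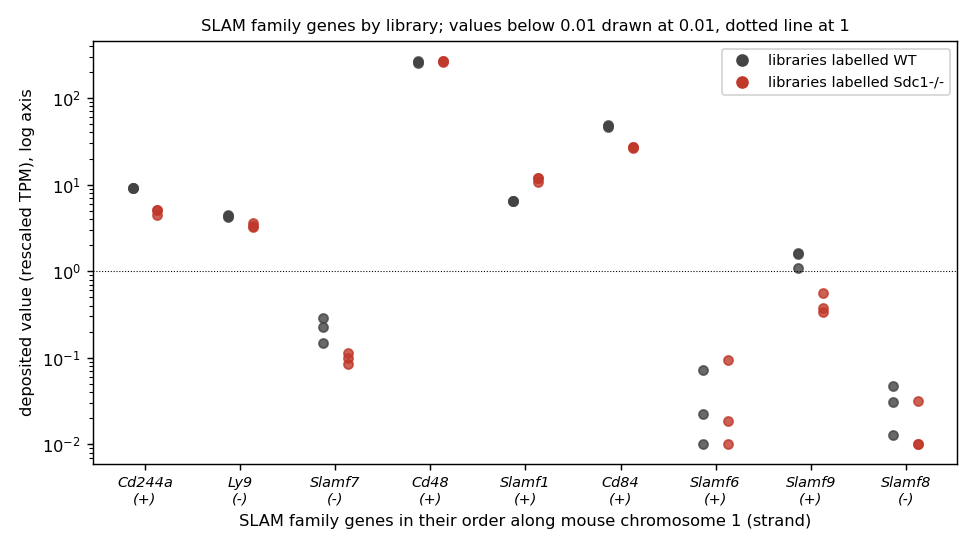
Value (rescaled TPM, log axis) of the SLAM receptor genes in each library (points), in their order along chromosome 1. Slamf1 is higher in the libraries labelled Sdc1-/- (red) than in the WT libraries (grey), Cd244a, Ly9, Slamf7, Cd84 and Slamf9 are lower, and Cd48, Slamf6 and Slamf8 overlap. Slamf6, Slamf7, Slamf8 and Slamf9 have means below 1 and were left out of the test. Slamf7 was not called in the fit with no minimum mean (limma, adjusted p = 0.0501).

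Ratios within a library do not change when the whole library is multiplied by a common factor, as with equal sums, but they can change with quantile normalization. Slamf1 and Cd48 encode proteins that are read together when stem cells of normal marrow are sorted. The log2 ratio of Slamf1 to Cd48 was -5.31, -5.38 and -5.35 in the WT libraries and -4.60, -4.49 and -4.48 in those labelled Sdc1-/-. It was higher by 0.825 in the second group, with no overlap. For Erg against Fli1, its nearest ETS relative, the log2 ratio rose from -0.31 ± 0.073 to 0.78 ± 0.098 (SD, n = 3 each), so that Erg was the lower of the pair in each WT library and the higher in each library labelled Sdc1-/-. That of Cd34 to Podxl, which encodes a related sialomucin, went from -0.50 ± 0.058 to -1.31 ± 0.025. Each of the 3 ratios, chosen after values were seen, had an exact two-sided permutation p of 0.1 (0.1 also after Benjamini-Hochberg adjustment over 3), the smallest that 3 against 3 libraries allow. A ratio shows unequal change of 2 genes and not which of them moved.

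Other genes of the same programs were called in both directions. Of 96 listed genes, 79 were tested, 32 were called higher, 26 lower and 21 not called, beside 29.3% higher and 31.3% lower over all tested genes, and the median log2 fold change was 0.06 against -0.0097. With equal sums per library the counts were 42 higher and 18 lower of 79, beside 43.5% and 19.5%. The counts of each list below stand beside the same shares over all tested genes, each on its own scaling.

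Surface proteins and receptors of stem and progenitor cells gave 2 higher, 6 lower and 3 not called of 11 tested (median -0.30), and 4 higher and 5 lower with equal sums per library. The 2 higher were 1 without WT replicate 3 or without replicate 1 or 3 labelled Sdc1-/-, and 0 without replicate 2 labelled Sdc1-/-. Kit, the receptor of stem cell factor used in the sort of the donor cells, had a log2 fold change of 0.18 (adjusted p = 0.0176), which was not called when WT replicate 1 (adjusted p = 0.055), WT replicate 3 (0.06) or replicate 2 labelled Sdc1-/- (0.055) was left out. Ly6a, which encodes Sca-1, the other marker of that sort, fell from 8.82 ± 1.09 to 2.82 ± 0.23 (SD, n = 3 each, log2 fold change -1.36, limma, adjusted p = 2.72e-05). Flt3, the receptor of multipotent and lymphoid progenitors, fell by 0.70 (adjusted p = 3.16e-05). Cd47, the signal that restrains phagocytes and the most abundant gene of the list, fell from 442 ± 11.8 to 298 ± 8.88 (SD, n = 3 each, log2 fold change -0.57, limma, adjusted p = 1.73e-05).

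Of 23 tested transcription regulators of these cells, 11 were called higher, 8 lower and 4 not (median 0.05), and 12 were higher and 5 lower with equal sums per library. Meis1, the TALE homeodomain partner of HOXA9, rose from 13.1 ± 0.35 to 28.6 ± 1.08 (SD, n = 3 each, log2 fold change 1.07, limma, adjusted p = 3.23e-06). Mycn, a relative of Myc expressed in stem cells, rose by 1.03 (adjusted p = 7.71e-06). Lmo4, an adaptor with LIM domains, fell by 0.74 (adjusted p = 6.02e-05) and the homeodomain gene Hhex fell by 0.55 (adjusted p = 0.000192). Gata2, the most abundant of them, had means of 161 ± 11.7 and 166 ± 5.01 (SD, n = 3 each) and was not called (adjusted p = 0.437). It was called higher (log2 fold change 0.20, adjusted p = 0.015) with equal sums per library. Hmga2, named after its values were seen because its log2 fold change of 1.58 (adjusted p = 3.16e-06) was the largest on the list, encodes a chromatin protein of fetal stem cells and stood at 1.16 ± 0.075 and 5.44 ± 0.20 (SD, n = 3 each).

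Relatives and coactivators of Myb gave 2 higher, 1 lower and 2 not called of 5 tested (median 0.05). Without any 1 of the 3 WT libraries, or without replicate 1 or 2 labelled Sdc1-/-, 1 was higher, and with equal sums per library 3 were higher and 0 lower. Myc, a target of Myb, rose by 0.18 (adjusted p = 0.00369). Bcl2, an inhibitor of cell death also listed as a Myb target, had a log2 fold change of -0.22 (adjusted p = 0.0204) that was not called with equal sums per library (-0.084, adjusted p = 0.32), nor without WT replicate 2 (0.06) or 3 (0.067) or without replicate 1 (0.059) or 2 (0.053) labelled Sdc1-/-.

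Mllt3 itself was not called. Of its 15 relatives and partners in elongation complexes 9 were called higher, 1 lower and 5 not (median 0.39), beside 29.3% higher and 31.3% lower over all tested genes. With equal sums per library 12 were higher and 0 lower, beside 43.5% and 19.5%. Dot1l, the methyltransferase of histone H3 lysine 79 that binds the MLLT3 protein, rose from 7.59 ± 0.17 to 15.8 ± 0.28 (SD, n = 3 each, log2 fold change 0.97, limma, adjusted p = 3.72e-06). Ccnt2, a cyclin of the elongation kinase P-TEFb, rose by 0.98 (adjusted p = 5.07e-05). Cdk9, the kinase itself and the most abundant of the list, had a log2 fold change of -0.19 (adjusted p = 0.0104), which was -0.039 and not called with equal sums per library (adjusted p = 0.48) and -0.10 and not called with quantile normalization (adjusted p = 0.091).

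The 15 tested ETS relatives of Erg split into 6 higher, 3 lower and 6 not called (median 0.06), or 8 higher and 2 lower with equal sums per library. Elk4 rose by 0.62 (adjusted p = 0.00557) and Elf2 by 0.35 (adjusted p = 9.56e-05). Spi1, which encodes PU.1, the factor that commits progenitors to myeloid and B cells, fell from 111 ± 2.35 to 59.4 ± 5.66 (SD, n = 3 each, log2 fold change -0.90, limma, adjusted p = 3.80e-05). Ets1 fell by 0.71 (adjusted p = 0.000149).

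The remaining relatives and partners, of Hlf, Sox4, Mecom, Cd34 and Procr, gave 3 higher, 4 lower and 1 not called of 8 tested (median -0.0057), with 4 higher and 2 lower at equal sums per library. Podxl rose from 67.0 ± 0.24 to 99.1 ± 1.55 (SD, n = 3 each, log2 fold change 0.56, limma, adjusted p = 7.53e-06), whereas its relative Cd34 was lower. Nfil3, a bZIP repressor that binds the same sites as HLF, fell by 0.97 (adjusted p = 7.83e-06). F2r, the thrombin receptor through which activated protein C bound to PROCR can signal, was the most abundant of them and fell by 0.38 (adjusted p = 3.71e-05).

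**Figure D4:**
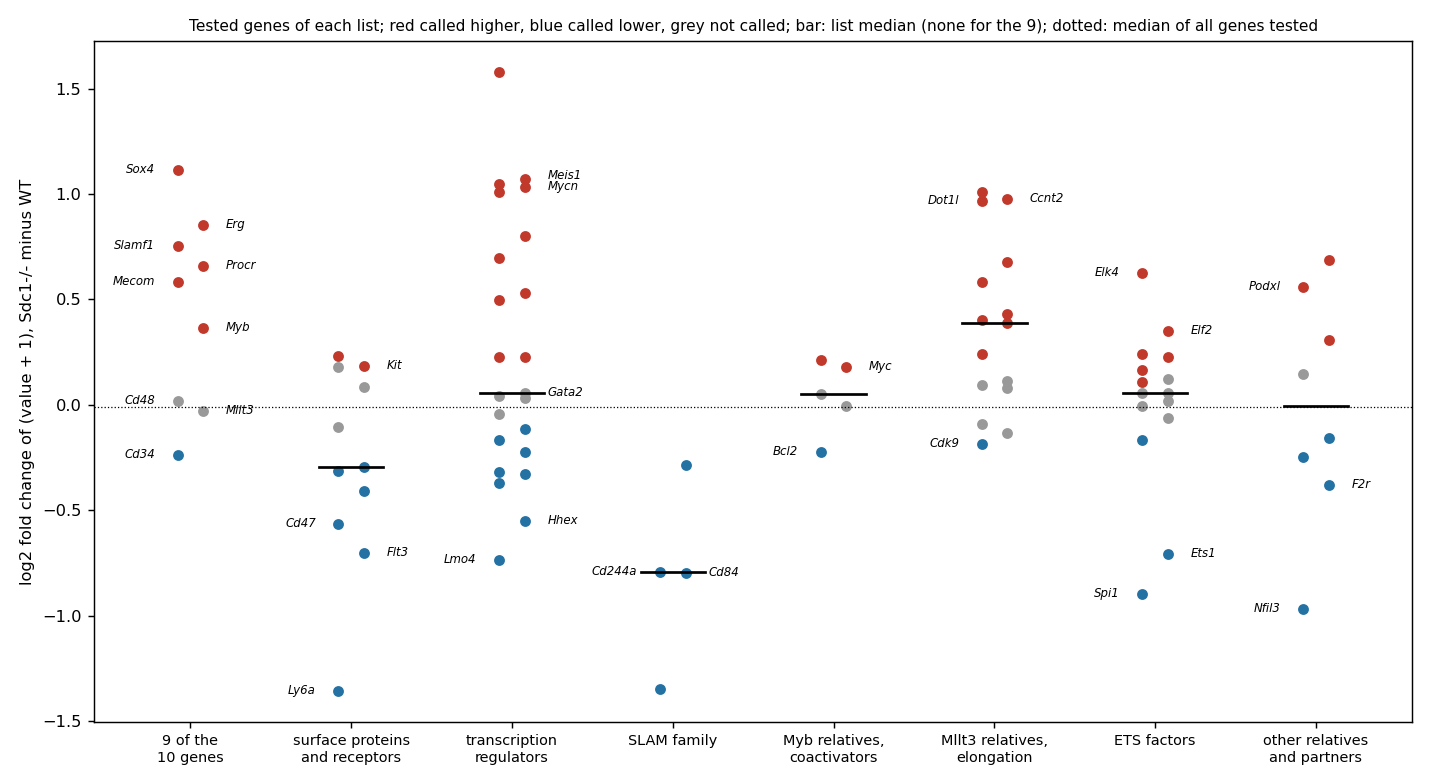
Log2 fold change of (value + 1), Sdc1-/- minus WT by label, of each tested gene (points) in the 7 lists and of 9 of the 10 genes; bars are list medians and the dotted line is the median of all tested genes. The SLAM list, which leaves out Slamf1 and Cd48 and has 4 tested genes with the adaptor gene Sh2d1b1 among them, lies wholly below 0 (median -0.79). The list of Mllt3 relatives lies mostly above 0 (median 0.39).

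Markers of maturing cells moved with the groups too. In bulk RNA, fewer cells of a type and less RNA per cell cannot be told apart. The summed value of 9 later granule genes of neutrophils ran from 4230 to 4284 in the WT libraries and from 1499 to 1580 in those labelled Sdc1-/-, and all 9 were called lower. Of 4 primary granule genes all 4 were lower (1058 to 1159 against 734 to 754), of 8 monocyte and macrophage genes 7 were tested and 7 were lower (83.0 to 86.3 against 28.8 to 31.2), and of 7 erythroid genes 6 were lower and 1 higher (9619 to 10096 against 5482 to 5858). Of 5 mast cell and basophil genes 4 were tested and 4 were lower (259 to 272 against 90.4 to 97.3). Csf1r, Ly86 and Ms4a6c of the monocyte list and Fcer1a of the mast cell list reached the minimum mean only through the WT libraries, in which they were high, so these counts are descriptions. Of 5 megakaryocyte genes 4 were lower and 1 higher, with sums that overlapped (486 to 513 against 494 to 507). With equal sums per library 2 of them were lower, 1 higher and 2 not called, while the counts of the other lists of this paragraph stayed the same. Over all tested genes 31.3% were lower and 29.3% higher, or 19.5% and 43.5% with equal sums per library. The part of these cell types in the results on the 10 genes was not tested.

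Cd34, Procr and Erg are also genes of vessels. Of 10 endothelial markers 5 were tested, 3 called higher and 2 lower, and their sum was 144 to 169 in the WT libraries and 126 to 135 in those labelled Sdc1-/-. The higher ones were Vwf (4.14 ± 0.66 to 14.8 ± 0.66), Tie1 (0.935 ± 0.16 to 4.24 ± 0.19, tested only through the libraries labelled Sdc1-/-) and Plvap (4.43 ± 0.40 to 7.23 ± 0.27, SD, n = 3 each). Egfl7, which makes up most of the sum (130 ± 11.3 to 92.0 ± 5.23), and Pecam1 were the lower ones. With equal sums per library Pecam1 was not called (log2 fold change -0.092, limma, adjusted p = 0.0994). Cdh5 and Kdr, which define endothelium, had means below 0.1. These 5 tested markers were named after their values were seen, and their part in the results on Cd34, Procr and Erg was not tested. Of 8 stromal markers 2 were tested, 1 higher and 1 lower (26.6 to 27.9 against 27.7 to 28.2), with Col1a1, Col3a1, Pdgfra and Dcn below 0.1. The sums of 6 T and NK cell markers (7.11 to 8.06 against 6.86 to 7.35) overlapped, the 1 tested was not called, and Cd3e, Cd4, Cd8a and Ncr1 were below 0.1. No marker of these lists was at 0 in all libraries.

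**Figure D5:**
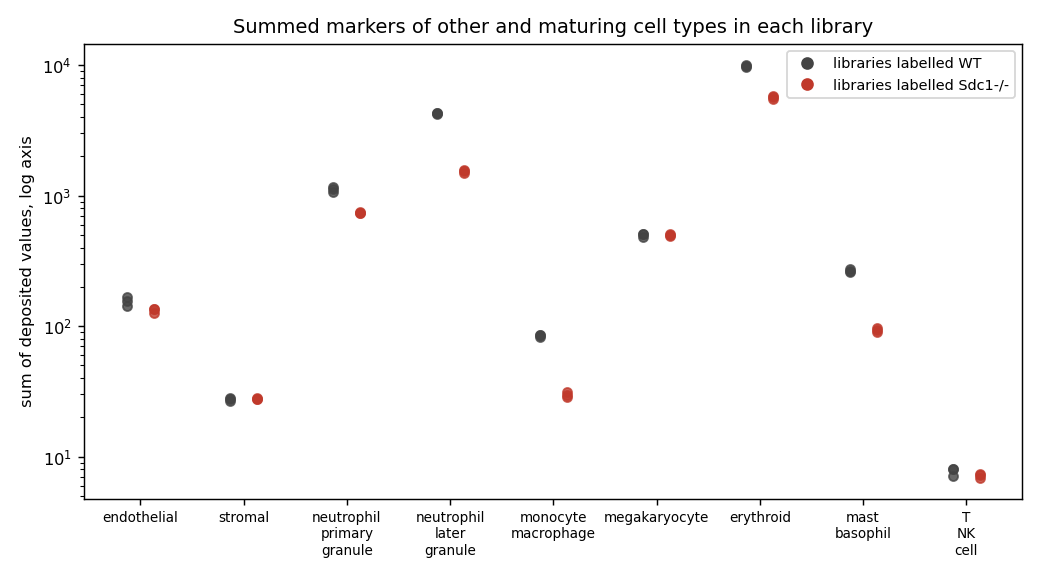
Sum of the values (rescaled TPM, log axis) of each marker list in each library (points), WT in grey and Sdc1-/- by label in red. The granule, monocyte, erythroid and mast cell sums are lower in all red libraries, the endothelial sum is lower too, and the stromal, megakaryocyte and T and NK cell sums overlap.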

How the data were processed

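Lin- bcCML cells of 3 libraries labelled WT and 3 labelled Sdc1-/- were compared, with groups from the labels. Libraries were made with a stranded kit from 150 ng of RNA and read as single reads of 75 bases. Per the labels and the paper, the authors assigned reads with kallisto (version not given in the sources used here) and used sleuth 0.30.0 and mm10. The authors deposited a signal per gene and library, TPM rescaled between libraries (sums of 944973 to 1058263). Depth is unknown. A second table of the authors' own comparisons (p-values, q-values, effect sizes and variances) was not used.

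Genes were named by Ensembl identifier in GENCODE M21 (35454 of 36083), and 11369 were at 0 in all libraries. limma 3.58.1 in R 4.3.3 was fitted to log2(value + 1) for genes whose mean reached 1, with a variance trend, no term but the group, and calls at an adjusted p of 0.05. The script was tested on simulated data. Tables and plots were made in Python 3.11.15 (pandas 2.3.3, numpy 2.4.6, scipy 1.17.1, matplotlib 3.10.9). The 10 genes and all lists were chosen with earlier results of these data known. Named were the 10 genes, Sdc1, sex genes, and of each list the 2 largest rises and 2 largest falls among called genes whose mean reached 5, and the most abundant gene. Alternatives changed the pseudocount, minimum mean, scaling, variance trend, replicate block and libraries. Xist was not analysed here, and 1 marker list is not reported here. Promoter windows came from RefSeq (GRCm38.p6) and positions from GENCODE M21 (GRCm38).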

Additional observations from a re-analysis of the deposited data

How the results depend on the processing

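Of the tests of the 10 genes, those of Erg, Mecom, Myb and Slamf1 kept their direction and call under every alternative run, and those of Sox4 and Procr did wherever they could be tested. Sox4, Procr and Sdc1 have no value at a minimum mean of 5. Results that changed sign were all uncalled ones: Mllt3 was 0.12 with equal sums per library (adjusted p = 0.15) and 0.0203 with quantile normalization (adjusted p = 0.8), and with 1 library left out at a time Mllt3 ran from -0.0648 to 0.036 (the latter without replicate 1 labelled Sdc1-/-), Cd48 from -0.0055 (without WT replicate 1) to 0.039 and Gata2 from -0.0067 (without WT replicate 2) to 0.094. With equal sums per library, 2367 of all genes were called lower (3810 otherwise) and 0 of the 10 genes, since Cd34 was no longer called, and with no minimum mean 2 of the 10 were lower, as Hlf entered the test. At a minimum mean of 5, 21 listed genes were higher in place of 32, with fewer genes tested, among them 7 regulators in place of 11, and 2 SLAM genes were lower in place of 4. Same-numbered libraries of the groups did not deviate together (correlations of 0.151, -0.008 and 0.018), and a replicate block gave 3653 genes higher and 3971 lower, with the surface protein list and the Myb list at 1 higher each in place of 2. Leaving out 1 library at a time gave 3083 to 3353 genes higher and 3380 to 3608 lower. Depth limits what can be said of Hlf, Sox4 and Procr, whose values are near or below 1.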
